A study of Mus musculus with 2 samples.

Results

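The 8 complement genes described here are C1qa, C1qb, C1qc, C3, C4b, Cfb, Cfd and Serping1, chosen by symbol from the 32574 genes of the deposited count tables. All 8 were found, each on 1 row. They were measured by droplet single-cell RNA sequencing of mouse adductor muscle on day 7 after femoral artery ligation, an operation that closes the main artery of the hind limb. The knockout library came from Apoa1bp-/- mice, also labelled AIBP-KO, and the WT library from control littermates, with ligation in both genotypes and 4 operated mice in each. There was 1 library per genotype, and the labels do not say whether the 4 mice were pooled into it. They leave out strain, sex and age too, and in which cells the gene was removed, so the knockout is described by its label. The intervals below cover the counting of molecules only, and no difference between the libraries has a replicate check or a p-value.

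Complement is a cascade of plasma proteins that tags microbes, dying cells and debris for removal. C1q, assembled from the chains encoded by C1qa, C1qb and C1qc, starts the classical pathway when it binds antibody or damaged surfaces. C4b encodes complement C4, which is cleaved next, and C3 encodes the protein on which all pathways meet. Cfb and Cfd encode factor B and the protease factor D of the alternative pathway, which amplifies C3 cleavage. Serping1 encodes C1 inhibitor, which blocks the proteases that C1q activates. Macrophages are the usual source of C1q in tissues, stromal cells make much of the local C3, C4 and C1 inhibitor, and factor D, also called adipsin, is a product of fat cells.

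After quality filters, 8682 knockout and 12351 WT cells remained, with medians of 6624.5 and 4169 unique molecular identifiers (UMIs) per cell. The knockout cells were the deeper ones in every class of 50 cells or more per library except muscle fibre, so shares of cells with a UMI were also taken after drawing 1000 UMIs from every cell. The targeted gene, Naxe (the current symbol of Apoa1bp, ENSMUSG00000028070), had 0 UMIs in knockout cells, which allows up to 0.0408 CPM (3 counts, scaled to a total of 1000000), against 3347 UMIs or 49.98 CPM in WT cells. Cells were placed into 16 classes by marker genes that include no complement gene, and 728 knockout cells (8.39%) and 1011 WT cells (8.19%) met no gate. The 12 classes with at least 50 cells in each library were macrophage, monocyte, neutrophil, dendritic cell, T cell, NK cell, endothelial cell, pericyte, fibroblast, satellite cell or myoblast, muscle fibre and Schwann cell, each name standing for cells like that type by its markers. The macrophage gate held 3289 knockout and 5002 WT cells, and the fibroblast gate 1490 knockout and 3770 WT cells. Of these, 94 and 120 macrophages and 26 and 21 fibroblasts lay within 0.02 of a score limit. Among monocytes, 14 of 172 knockout cells (8.14%) and 23 of 85 WT cells (27.1%) lay that close. Between the libraries, 43 barcode sequences were shared, 28 of them among kept cells, and 4 of those 28 fell in the same class.

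The C1q chains were detected in the same cells, and the sequence at the start of their genes is shown for this reason. RefSeq promoter windows (GRCm38.p6), from 250 bases before to 50 bases after the gene start, were held for C1qb, C1qc, C3 and Cfd. The windows of C1qb (chr4:136886151-136886450, minus strand) and C1qc (chr4:136892865-136893164, minus strand) read, 5′ to 3′ on the gene's strand, with the motif match in capitals:
C1qb: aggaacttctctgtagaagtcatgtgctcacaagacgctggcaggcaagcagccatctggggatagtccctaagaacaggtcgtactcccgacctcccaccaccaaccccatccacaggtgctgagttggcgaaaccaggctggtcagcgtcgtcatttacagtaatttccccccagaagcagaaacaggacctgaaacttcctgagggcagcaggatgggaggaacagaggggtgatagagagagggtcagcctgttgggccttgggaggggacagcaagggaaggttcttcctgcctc
C1qc: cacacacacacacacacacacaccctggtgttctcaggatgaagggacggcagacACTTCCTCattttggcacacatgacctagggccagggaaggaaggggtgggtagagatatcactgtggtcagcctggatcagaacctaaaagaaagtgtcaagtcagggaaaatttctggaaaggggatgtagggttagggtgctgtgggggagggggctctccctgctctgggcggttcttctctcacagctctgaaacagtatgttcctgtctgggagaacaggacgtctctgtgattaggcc
Both strands of the windows of these 4 genes were searched for GAGGAAGT, a site of the myeloid transcription factor PU.1, for the interferon regulatory factor core GAAANNGAA and for the gamma-activated sequence TTCNNNGAA. The single match was ACTTCCTC in the C1qc window, the PU.1 letters on the opposite strand, 195 to 188 bases before the start. These motifs occur in 3.20%, 8.56% and 8.30% of all 32851 windows.

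C1q expression belonged to macrophages in both libraries, and its level there in CPM was close between genotypes. Macrophages held 93.9%, 93.7% and 93.9% of the C1qa, C1qb and C1qc UMIs of knockout cells, against 93.1%, 92.8% and 93.4% of those of WT cells. C1qa (ENSMUSG00000036887), the first chain, stood at 5060 CPM in knockout macrophages (95% interval 5033 to 5088), against 5231 CPM in WT macrophages (5204 to 5259). C1qb (ENSMUSG00000036905) stood at 4952 CPM in knockout macrophages (4925 to 4979), against 4774 CPM in WT macrophages (4748 to 4800). The ratios of knockout over WT were 0.967 for C1qa (0.960 to 0.9747) and 1.04 for C1qb (1.03 to 1.05). In CPM neither chain thus differed by more than a few percent. C1qc (ENSMUSG00000036896) stood at 3071 CPM in knockout macrophages (3049 to 3092), against 2897 CPM in WT macrophages (2876 to 2917), a ratio of 1.06 (1.05 to 1.07). Scaling the macrophage sums by edgeR's TMM factors shifted all log2 ratios there by 0.16, which put C1qa at 1.08 and turned its direction. It put C1qb at 1.16 and C1qc at 1.18, so the closeness of the levels depends on the scaling.

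**Figure D1:**
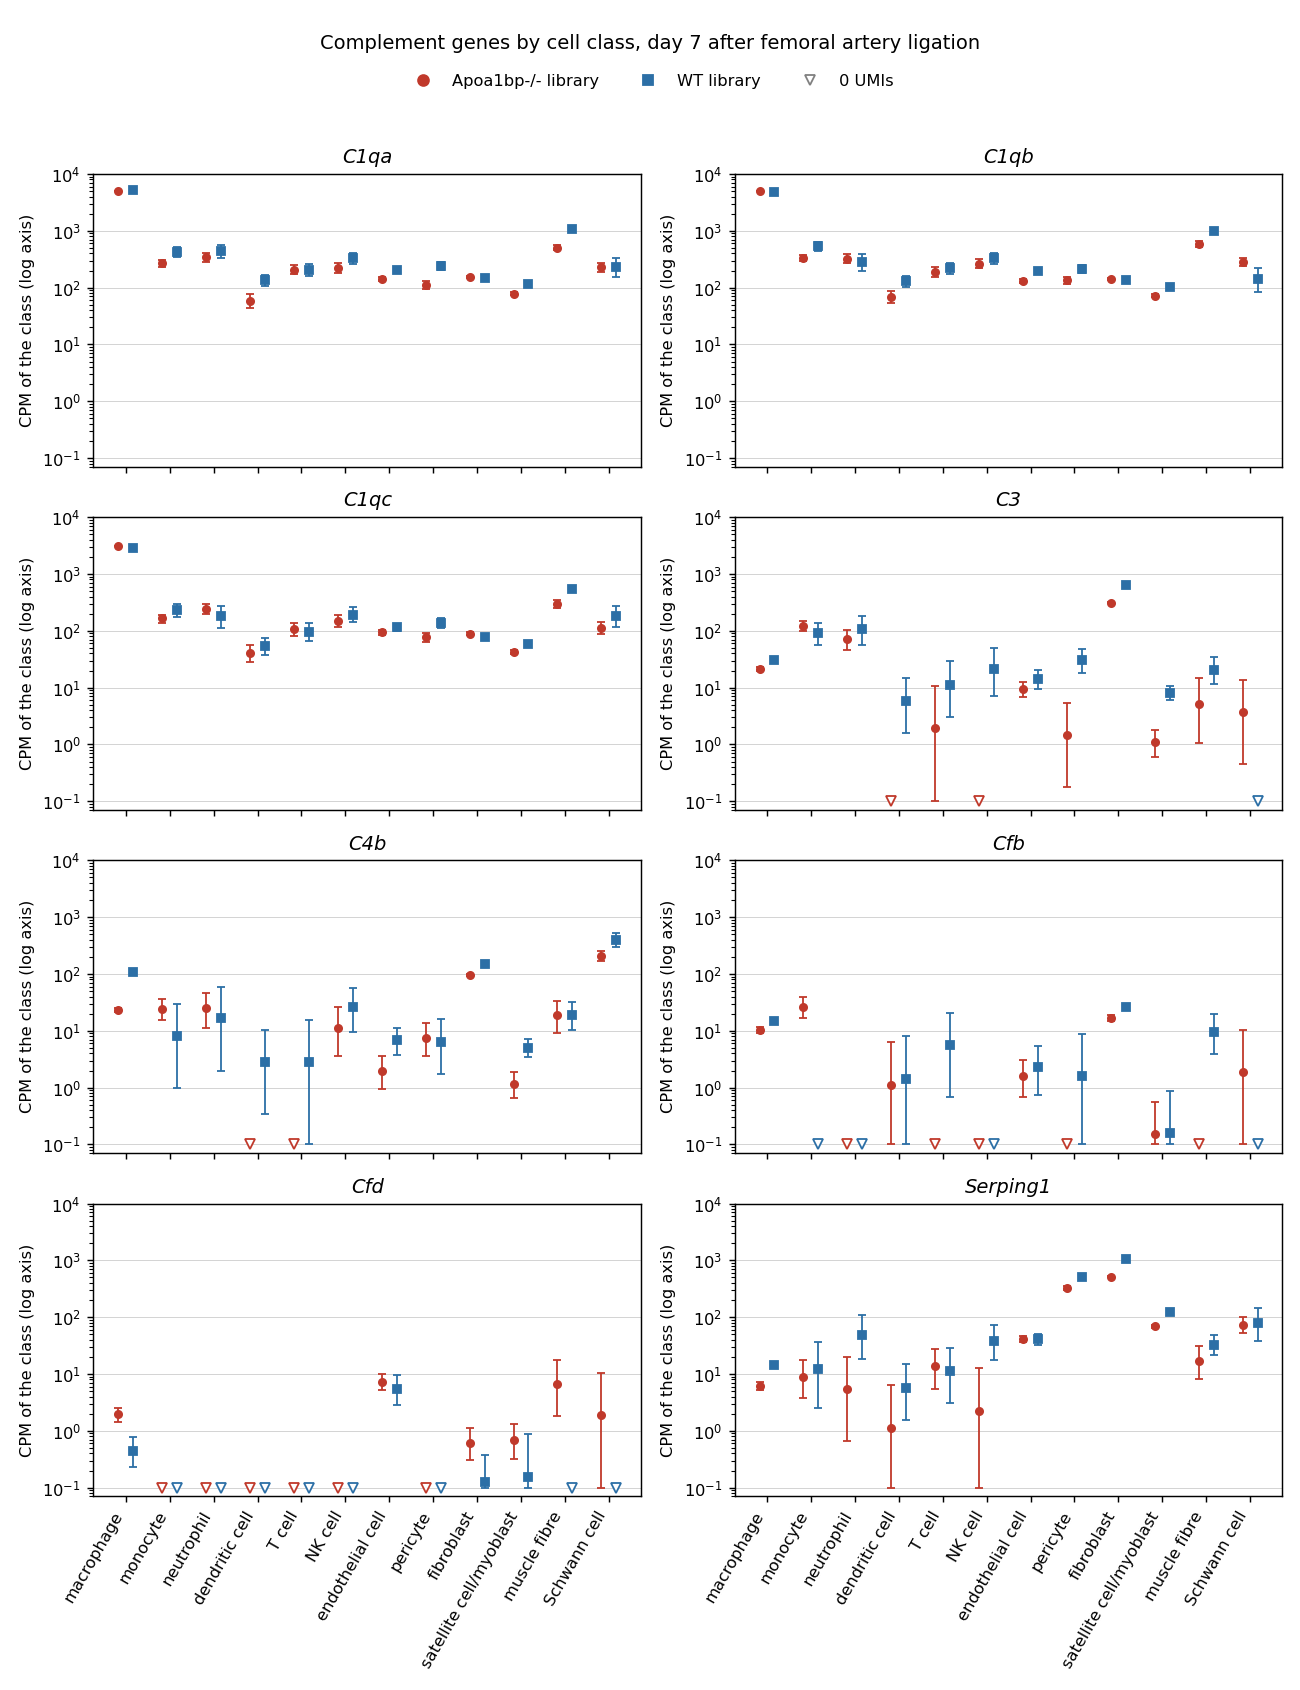
Level of each complement gene in CPM of the class, on a log axis, by cell class, with circles for the Apoa1bp-/- library, squares for the WT library, bars for the 95% counting interval (cut off at 0.1 CPM) and open triangles at 0.1 CPM for 0 UMIs. The C1q chains peak in macrophages, C3 and Serping1 in fibroblasts and C4b in Schwann cells, and Cfd is at or below 7.30 CPM in every class shown.

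The 3 chains were found in the same cells, and the spread of C1q between macrophages was wider in the knockout library. With each cell thinned to 1000 UMIs, all 3 chains were detected in 79.8% of knockout and 83.7% of WT macrophages. No chain was detected in 5.87% of thinned knockout macrophages, against 2.74% of thinned WT macrophages. Before thinning, 94.4% of knockout and 97.2% of WT macrophages had a C1qa UMI, and afterwards 87.0% of knockout and 92.6% of WT macrophages did. The tenth percentile of the summed C1q level per macrophage was 2724 CPM in the knockout library and 4823 CPM in the WT library. The median was 14253 CPM in knockout and 13651 CPM in WT macrophages, and the ninetieth percentile 24264 CPM in knockout and 21206 CPM in WT macrophages. The knockout library thus extended further at both ends around a similar centre. Among thinned C1qa-positive macrophages, 97.7% of knockout and 97.6% of WT cells also had C1qb. Among C1qa-negative ones, 46.5% of 415 knockout and 54.4% of 353 WT cells did.

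C1q differed between macrophage subsets by less than 2-fold, and the direction of the genotype difference was not the same in all of them. In resident macrophages, gated on Cd163, Lyve1, Folr2, F13a1 and Cbr2, the summed C1q level was 16134 CPM in knockout and 15118 CPM in WT cells. In the subset gated on Cx3cr1 and class II genes, which present antigen, it was 14366 CPM in knockout and 12916 CPM in WT cells. Lipid-associated macrophages, gated on Gpnmb, Spp1, Trem2, Fabp5 and Syngr1, had 12725 CPM in knockout and 12767 CPM in WT cells. These 3 subsets were level or higher in the knockout library. Cycling macrophages had 8157 CPM in knockout and 10152 CPM in WT cells, the lowest level of the gated subsets in both libraries. The subset gated on interferon-induced genes had 11578 CPM in 70 knockout cells and 15554 CPM in 32 WT cells, so each chain was lower in the knockout cells, with ratios of 0.757 for C1qa, 0.733 for C1qb and 0.744 for C1qc. After thinning, no chain was detected in 17.1% of the interferon-gated knockout cells, against 3.33% of the WT ones.

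**Figure D2:**
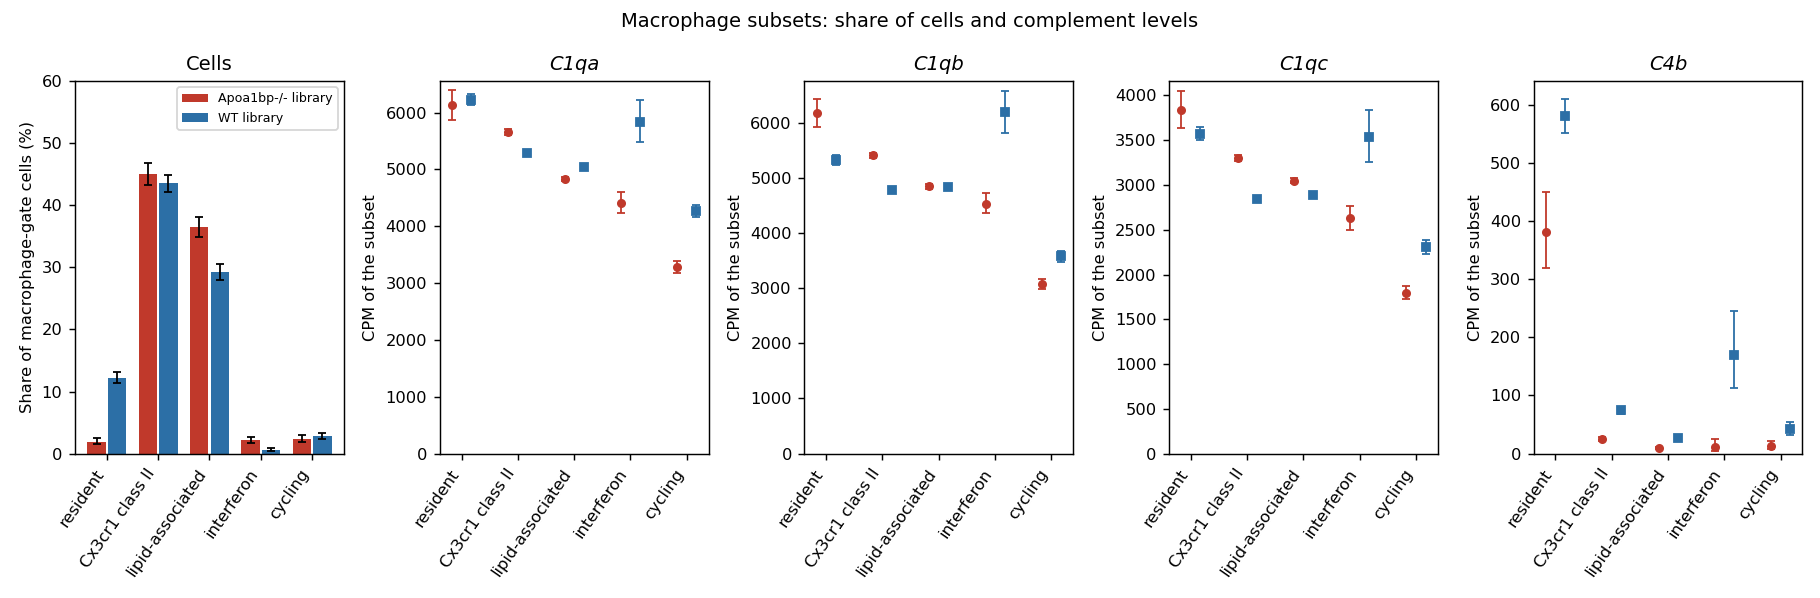
The first panel gives the share of macrophage-gate cells in each subset, in percent (left bars the Apoa1bp-/- library, right bars the WT library, with exact binomial 95% intervals). The other panels give C1qa, C1qb, C1qc and C4b in CPM of the subset, with 95% counting intervals. C4b stands at 381 CPM in knockout and 580 CPM in WT resident macrophages, above all other subsets, and that subset holds 1.92% of knockout and 12.3% of WT macrophages.

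Outside macrophages, C1q was present at a lower level in each of the other 11 classes of 50 cells or more. Its summed level in T cells, which are not a source of C1q, was 3.87% of the macrophage level in the knockout library and 4.04% in the WT library. C1qa UMIs were found in 10.2% of thinned knockout and 16.9% of thinned WT T cells. The summed level was 2.96% and 2.84% of the macrophage level in knockout and WT fibroblasts, and 1.48% and 2.17% in knockout and WT satellite cells or myoblasts, at or below the share in T cells. C1qa made up 38.7% of the C1q UMIs of knockout and 40.5% of those of WT macrophages. Its share was 40.3% and 40.9% in knockout and WT fibroblasts and 41.2% and 39.7% in knockout and WT T cells. The C1qa share was thus nearly the same in these classes. C1qb made up 43.6% of the C1q UMIs of knockout and 45.1% of those of WT monocytes. In macrophages it made up 37.8% in the knockout and 37.0% in the WT library. Monocytes stood at 5.86% of the macrophage level in the knockout and 9.18% in the WT library. Among the 12 classes, muscle fibres were second for each chain, though their C1qc interval overlapped that of neutrophils, and stood at 10.6% of the macrophage level in the knockout and 20.2% in the WT library. Of the classes too small for this order, 10 knockout cells of the adipocyte gate stood at 14.5% and 13 WT mast cells at 40.1% of the macrophage level, from 323 and 117 C1q UMIs. Per muscle fibre, the median summed C1q level was higher in the knockout library, at 556 CPM against 185 CPM in WT. The ninetieth percentile was 3596 CPM in knockout and 8424 CPM in WT fibres. No C1q UMI was found in 125 of 307 knockout and 111 of 238 WT fibres. The 8 macrophage gate markers summed to 614 CPM in knockout and 1178 CPM in WT muscle fibres, with all 8 detected in both. Their part in the C1q values of these fibres was not tested.

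Fibroblasts held the largest share of the C3, C4b, Cfb and Serping1 UMIs in both libraries, and all 4 genes were lower in knockout fibroblasts as a class. Fibroblasts held 85.0% of the C3 UMIs and 79.8% of the Serping1 UMIs of knockout cells, against 93.0% and 92.4% of those of WT cells. They held 65.0% of the C4b UMIs and 48.2% of the Cfb UMIs of knockout cells, against 53.6% and 59.3% of those of WT cells, with most of the rest in macrophages. C3 (ENSMUSG00000024164), the central component, stood at 311 CPM in knockout fibroblasts (303 to 319), against 653 CPM in WT fibroblasts (642 to 663), a ratio of 0.476 (0.462 to 0.491). Serping1 (ENSMUSG00000023224), the C1 inhibitor, stood at 511 CPM in knockout fibroblasts (500.4 to 521), against 1061 CPM in WT fibroblasts (1048 to 1074), a ratio of 0.482 (0.470 to 0.493). Both were thus far below the WT level. C4b (ENSMUSG00000073418) stood at 95.1 CPM in knockout fibroblasts (90.6 to 99.7), against 153 CPM in WT fibroblasts (148 to 158), a ratio of 0.622 (0.587 to 0.659). Cfb (ENSMUSG00000090231), factor B, was the weakest, at 16.8 CPM in knockout fibroblasts (15.0 to 18.8), against 26.5 CPM in WT fibroblasts (24.5 to 28.7), a ratio of 0.634 (0.551 to 0.728). Of the 7 members with at least 20 CPM in fibroblasts of either library, 0 exceeded the WT level by 25% or more and 4 lay below it by 20% or more in the knockout library, as did 18.2% and 29.7% of all 6329 genes measured at that level. In macrophages 5 members were measured; 0 of the 5 were past the upper limit and C3 and C4b were past the lower one, against 11.2% and 25.4% of 5447 genes.

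**Figure D3:**
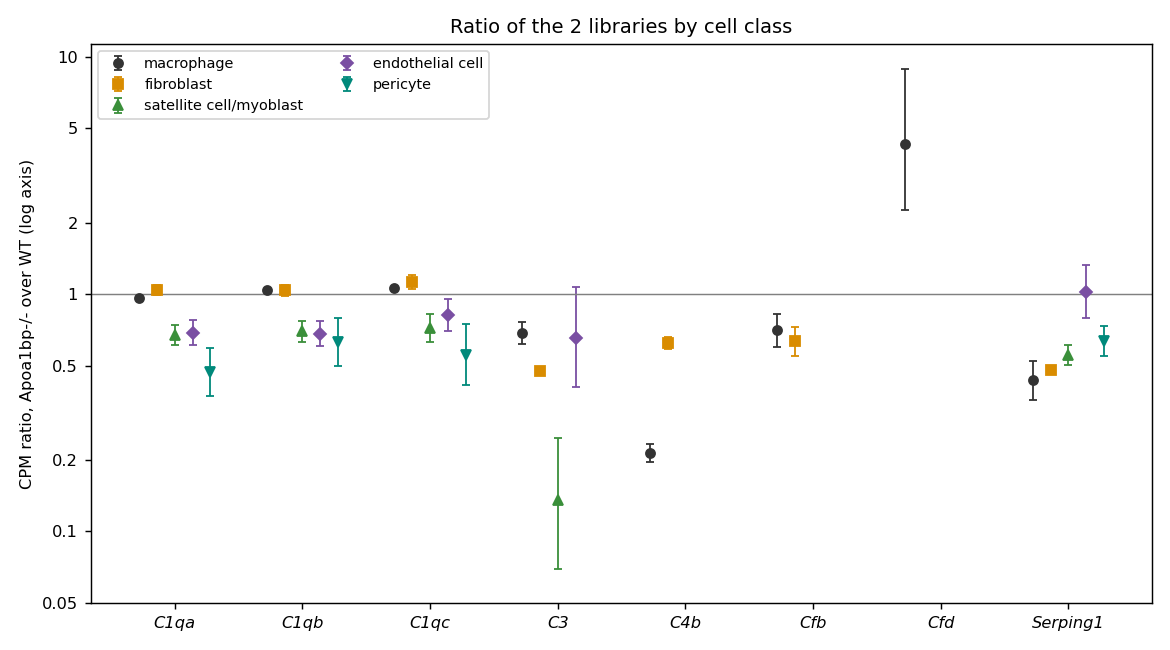
Ratio of CPM in the Apoa1bp-/- library over the WT library on a log axis, with its 95% counting interval, for each complement gene in 5 cell classes, shown where both libraries had the gene and at least 50 UMIs together. The C1q chains lie near 1 in macrophages and fibroblasts and below 1 in satellite cells or myoblasts, endothelial cells and pericytes. C3, C4b and Cfb lie below 1 wherever shown, and Serping1 lies below 1 except in endothelial cells, at 1.02.

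The levels of the fibroblast genes differed between subsets, which took different shares of the class in the 2 libraries. The Pi16 subset, gated on Pi16, Dpp4, Sema3c, Anxa3 and Efhd1, held 13.02% of knockout fibroblasts (194 cells) and 29.7% of WT fibroblasts (1120 cells). Within it C3 stood at 2019 CPM in knockout cells (1946 to 2093), against 1644 CPM in WT cells (1609 to 1679), a ratio of 1.23 (1.18 to 1.28). C4b stood at 590 CPM in knockout cells (551 to 631), against 411 CPM in WT cells (393 to 428), a ratio of 1.44 (1.33 to 1.56). In this subset both genes were therefore higher in the knockout library, opposite to the class as a whole. After thinning, C4b was detected in 37.0% of knockout and 22.0% of WT cells of the subset, whereas C3 was detected in 71.4% of knockout and 70.5% of WT cells, nearly the same share. Cfb there was at 47.7 CPM in knockout and 39.1 CPM in WT cells, with intervals that overlap. Serping1 was at 1388 CPM in knockout and 1823 CPM in WT cells, lower as in the class. The 3 C1q chains also stood 2.28-, 2.16- and 2.56-fold higher in the knockout subset, and its macrophage gate markers summed to 473 CPM, against 283 CPM in the WT subset, with all 8 detected in both. C1qa was detected in 9.90% of thinned knockout and 9.38% of thinned WT cells of the subset. The part of macrophage RNA in the C3 and C4b values was not tested. Macrophages had C3 at 21.2 CPM in knockout and 31.0 CPM in WT cells.

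The activated subset held 41.1% of knockout fibroblasts (612 cells) and 25.7% of WT fibroblasts (969 cells). Its levels of these genes were below those of the Pi16 subset. Of all fibroblast UMIs it still held 23.7% for Serping1 and 32.2% for Cfb in the knockout library, against 14.5% and 25.2% in WT. Its shares of the C3 and C4b UMIs were 7.40% and 11.0% in the knockout and 3.50% and 5.78% in the WT library. C3 stood at 42.1 CPM in knockout and 52.4 CPM in WT activated fibroblasts, and C4b at 19.1 CPM in knockout and 20.2 CPM in WT ones. Serping1 stood at 221 CPM in knockout and 352 CPM in WT activated fibroblasts. Cycling fibroblasts, 4.90% of the class in the knockout and 1.56% in the WT library, showed the lowest ratios, with C3 at 46.1 CPM in 73 knockout and 243 CPM in 59 WT cells, a ratio of 0.1898 (0.147 to 0.243), and Serping1 at 126 CPM in knockout and 381 CPM in WT cells. The fibroblast gate markers also summed lower in the cycling knockout cells, 3891 CPM against 5745 CPM in the WT ones, with all 8 detected in both, and their part was not tested.

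Interstitial fibroblasts, 17.9% of the class in the knockout and 26.6% in the WT library, stood between these extremes. They had C3 at 455 CPM in knockout and 644 CPM in WT cells, C4b at 92.1 CPM in knockout and 86.5 CPM in WT cells, and Serping1 at 1253 CPM in knockout and 1601 CPM in WT cells. The small subset gated on genes such as Gdf10, Penk and Myoc, with 67 knockout and 192 WT cells, had the highest Serping1, at 1949 CPM in knockout and 2521 CPM in WT cells. Its C3 was 1262 CPM in knockout and 2084 CPM in WT cells, and its C4b 334 CPM in knockout and 471 CPM in WT cells. Cfb in that subset, at 57.6 CPM in knockout and 64.2 CPM in WT cells, had overlapping intervals. Serping1 was thus lower in the knockout library in each of the 5 gated subsets, with ratios between 0.330 and 0.783, whereas C3 and C4b were not lower in all of them.

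**Figure D4:**
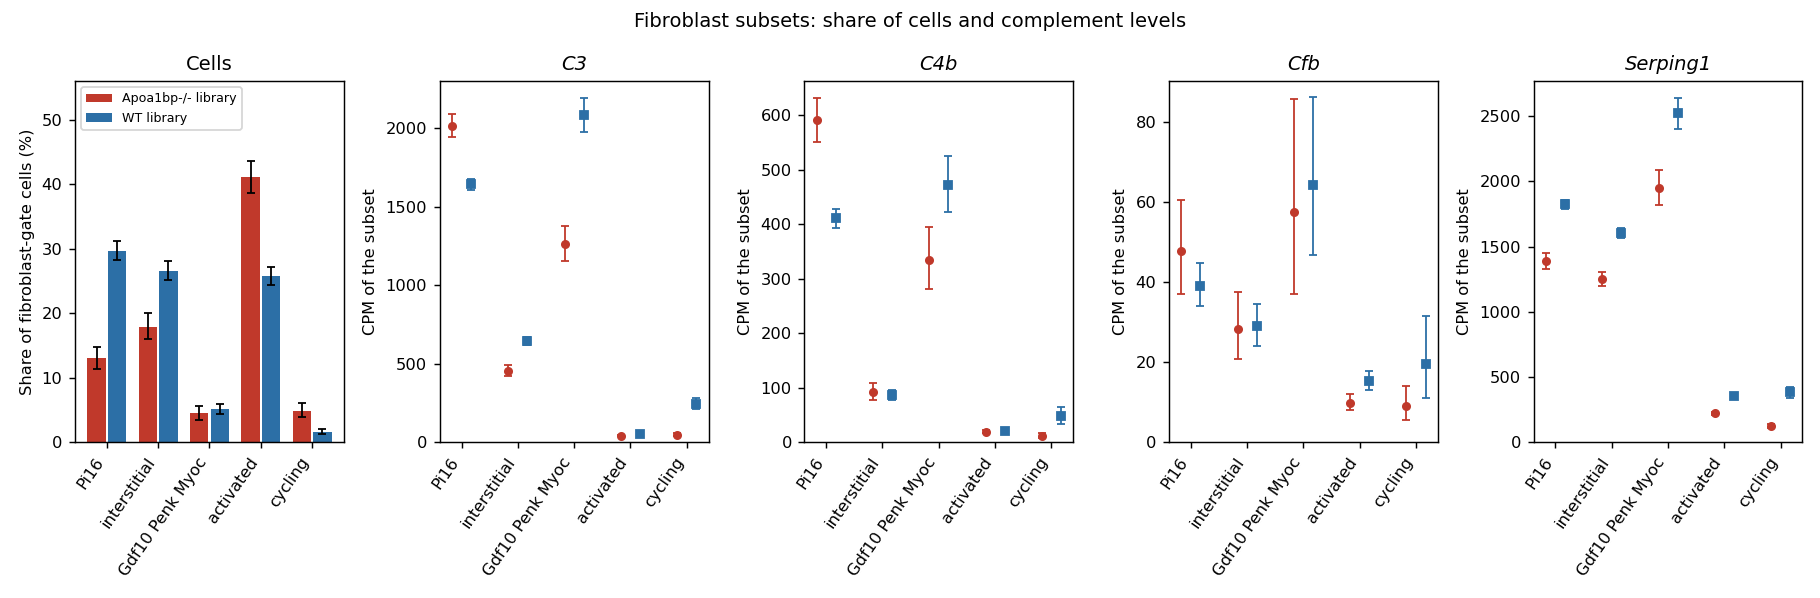
The first panel gives the share of fibroblast-gate cells in each subset, in percent (left bars the Apoa1bp-/- library, right bars the WT library, with exact binomial 95% intervals). The other panels give C3, C4b, Cfb and Serping1 in CPM of the subset, with 95% counting intervals. The Pi16 subset is rich in C3 and C4b and holds 13.02% of knockout and 29.7% of WT fibroblasts. The activated subset has lower levels of all 4 genes than the Pi16 subset and holds 41.1% and 25.7%.

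Holding the make-up of the class fixed moved the ratios by different amounts. With the subset weights of the WT library on both, the fibroblast ratio of C3 was 0.949 and that of C4b 1.18, against 0.476 and 0.622 as found. With the weights of the knockout library on both, they were 0.756 and 0.957. Serping1 kept more of its difference, at 0.717 with WT weights and 0.659 with knockout weights, against 0.482 as found. Cfb was at 0.895 with WT weights and 0.737 with knockout weights. Within single fibroblasts thinned to 1000 UMIs, C4b was detected in 30.5% of C3-positive and 3.40% of C3-negative knockout cells, and in 21.7% of C3-positive and 5.04% of C3-negative WT cells. C4b was thus detected several times as often in C3-positive fibroblasts in both libraries, as a description of cells that share a library and a mix of subsets. T cells, as a class without these genes, had C3 in 0 of 147 thinned knockout cells and in 1.41% of thinned WT cells.

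C4b was much lower in knockout macrophages. It stood at 22.8 CPM in knockout macrophages (21.0 to 24.7), against 106 CPM in WT macrophages (102 to 110), a ratio of 0.214 (0.196 to 0.234). Resident macrophages had the highest level, 381 CPM in knockout cells (319 to 451), against 580 CPM in WT cells (551 to 610), a ratio of 0.657 (0.546 to 0.784). They numbered 63 in the knockout library and 613 in the WT library, and held 23.0% of the macrophage C4b UMIs of the knockout and 51.8% of those of the WT library. Without the resident subset, C4b was at 17.8 CPM in knockout and 56.6 CPM in WT macrophages, a ratio of 0.315 (0.282 to 0.350). Resident cells were thus fewer in the knockout library, and C4b was also lower within each gated subset. Lipid-associated macrophages had 8.85 CPM in knockout and 26.1 CPM in WT cells, and the Cx3cr1 class II subset 24.9 CPM in knockout and 74.2 CPM in WT cells. With WT subset weights on both libraries the macrophage ratio was 0.504, and with knockout weights 0.380. Both leave out the small interferon-gated subset.

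Fibroblast RNA in the macrophage gate moved the same way as C4b. The 8 fibroblast gate markers summed to 71.9 CPM in knockout and 159 CPM in WT macrophages, with all 8 detected in both, and their part in the C4b difference was not tested. There were 33.8 C4b UMIs per Serping1 UMI in knockout and 46.0 in WT resident macrophages, the knockout value resting on 4 Serping1 UMIs. Lipid-associated macrophages had 1.20 in the knockout and 1.79 in the WT library, and fibroblasts 0.186 in the knockout and 0.144 in the WT library. Pdgfra and Fbn1 were at 0 in knockout resident macrophages, where the other 6 fibroblast markers had 18 UMIs together.

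Schwann cells, the glia of peripheral nerves, had the highest C4b level of all 12 classes in both libraries, 207 CPM in 132 knockout cells (170 to 250), against 404 CPM in 61 WT cells (301 to 532). The ratio was 0.512 (0.364 to 0.729). Fibroblasts came next in both libraries, and the intervals of these neighbours in the order did not overlap. Macrophages followed in the WT library, while in the knockout library neutrophils, monocytes and macrophages had overlapping intervals, at 22.8 to 24.7 CPM. T cells had 0 C4b UMIs in the knockout and 1 in the WT library. Outside the 12 classes, the adipocyte gate stood higher, at 440 CPM in 10 knockout and 1755 CPM in 5 WT cells. These levels rest on 75 and 26 C4b UMIs.

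Serping1 was the member spread over most stromal classes. After fibroblasts, pericytes, the contractile cells around small vessels, had 327 CPM in the knockout (297 to 359) and 515 CPM in the WT library (460 to 574), a ratio of 0.634 (0.548 to 0.735). Satellite cells or myoblasts, the precursors of muscle fibres, had 69.1 CPM in the knockout and 124 CPM in the WT library, a ratio of 0.556 (0.505 to 0.613). The fibroblast markers summed to 343 CPM in knockout and 499 CPM in WT satellite cells or myoblasts, and to 1207 CPM in knockout and 1242 CPM in WT pericytes, all 8 detected each time, and their part was not tested. Endothelial cells differed from these classes, with 41.4 CPM in the knockout (36.0 to 47.4) and 40.6 CPM in the WT library (32.6 to 49.9), a ratio of 1.02 (0.793 to 1.32). That interval leaves room for a moderate difference in either direction. Schwann cells, at 73.4 CPM in the knockout and 79.3 CPM in the WT library, did not differ beyond their intervals. The fibroblast markers summed to 455 CPM in knockout and 485 CPM in WT endothelial cells. In Schwann cells they summed to 1409 CPM in the knockout and 793 CPM in the WT library, where Pdgfra was at 0. Their part in these Serping1 values was not tested. By the same limits, endothelial cells had 0 of 4 measured members higher and 2 lower, C1qa and C1qb, against 15.9% and 34.5% of 6514 genes. In pericytes 0 of 5 were higher and 5 lower (the C1q chains, Serping1 and C3), against 20.3% and 35% of 7041 genes. C3 there rested on only 2 knockout and 19 WT UMIs. In satellite cells or myoblasts 0 of 4 were higher and 4 lower (the C1q chains and Serping1), against 19.4% and 23.4% of 6068 genes. The macrophage markers were lower as well, at 277 CPM in knockout and 359 CPM in WT endothelial cells, 338 and 486 CPM in knockout and WT pericytes, and 136 and 167 CPM in knockout and WT satellite cells or myoblasts. All 8 were detected each time, and their part in the C1q values was not tested.

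C3 and Cfb were also found in myeloid cells, where they had fewer UMIs than in fibroblasts. C3 in monocytes was 122 CPM in the knockout (99.96 to 147) and 90.4 CPM in the WT library (56.7 to 137), with overlapping intervals. Neutrophils had 71.5 CPM in 189 knockout cells and 107 CPM in 64 WT cells, and their intervals overlapped too. C3 in satellite cells or myoblasts was 1.09 CPM in the knockout and 8.0 CPM in the WT library, from 14 and 51 UMIs. Macrophages held 42.6% of the Cfb UMIs of knockout and 37.1% of those of WT cells, at 10.3 CPM in the knockout and 14.7 CPM in the WT library, a ratio of 0.704 (0.600 to 0.825). Monocytes had 24 Cfb UMIs in 172 knockout cells, or 26.5 CPM, against 0 in 85 WT cells, where 0 allows up to 12.3 CPM. In the knockout library this was the highest Cfb level of the 12 classes, with an interval overlapping that of fibroblasts, at 16.8 CPM. The counts of C4b and Cfb carry a limit of their own: in the GENCODE transcripts, 18.6% of 91-base stretches of C4b also occur in C4a and 81.1% of those of Cfb in Gm20547, so reads of these genes may be shared or dropped. C4a had 2 to 13 UMIs and Gm20547 0 UMIs in the macrophage and fibroblast gates of either library.

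Cfd (ENSMUSG00000061780), factor D, was a matter of very few cells. It had 3479 UMIs in kept knockout cells and 30 in WT cells, a difference carried by 5 knockout cells. These 5 held 3362 of the knockout UMIs (96.6%), with 1281, 1055, 978, 26 and 22 each. All 5 fell in the adipocyte gate, which held 10 knockout and 5 WT cells, and each of them had UMIs of 4 to 6 of the 6 adipocyte markers, such as Adipoq, which encodes the fat hormone adiponectin. The 5 WT cells of that gate had 0 Cfd UMIs. Fibroblast gate markers summed to 211 CPM in the knockout and 5601 CPM in the WT cells of the gate, with 7 of 8 detected and Pdgfra at 0 in both, and 3 of the knockout and 2 of the WT cells lay within 0.02 of a score limit. Capture of fat cells, their Cfd level and the gating cannot be told apart here, and no level per fat cell is compared. Outside that gate Cfd had 117 UMIs in 76 knockout cells (1.60 CPM) and 30 UMIs in 19 WT cells (0.448 CPM). Of these, macrophages had 50 UMIs in the knockout and 12 in the WT library, or 1.94 and 0.450 CPM. Endothelial cells stood at 7.30 CPM in the knockout and 5.47 CPM in the WT library, from 37 UMIs in 16 knockout cells and 12 UMIs in 4 WT cells. That was the highest level of the 12 classes, but in the knockout library the interval overlapped that of muscle fibres, at 6.79 CPM.

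The other genes of the cascade, 46 in 7 lists by role, showed lower values in the knockout library more often than higher ones. In macrophages 12 were measured at 20 CPM or more, of which 1 was at least 25% higher and 7 at least 20% lower, where 11.2% and 25.4% of all genes were, and the median log2 ratio was -0.44 against -0.11 over all genes. Fcna, the lectin ficolin A that starts the lectin pathway, stood at 20.02 CPM in knockout and 113 CPM in WT macrophages, a ratio of 0.176. In resident macrophages, the subset richest in Fcna and smaller in the knockout library, the ratio was 0.462 (0.378 to 0.560), and in lipid-associated ones 0.419. The Fcna ratio was 0.305 (0.248 to 0.373) in the Cx3cr1 class II subset and 0.178 (0.113 to 0.271) in cycling macrophages. Cfp, properdin, which stabilises the enzyme complexes of the alternative pathway, stood at 163 CPM in knockout and 226 CPM in WT macrophages. It was higher in knockout lipid-associated macrophages, with a ratio of 1.13 (1.05 to 1.21), and lower in the Cx3cr1 class II subset, with a ratio of 0.670 (0.625 to 0.718). Among receptors, C5ar1, for the peptide C5a, stood at 135 CPM in knockout and 195 CPM in WT macrophages. C3ar1, for the peptide C3a, was level, at 338 CPM in knockout and 326 CPM in WT macrophages. Of the integrin chains of the complement receptors for C3 fragments, Itgam had a ratio of 1.00, Itgb2 of 0.734 and Itgax of 0.589. Lrp1, a scavenger receptor, had a ratio of 0.740 and Cd93, once proposed as a C1q receptor, of 0.891. Cr1l, the mouse regulator Crry, had a ratio of 1.16, and C1qbp, a mostly mitochondrial protein first isolated as a C1q binder, stood at 90.5 CPM in knockout and 70.0 CPM in WT macrophages, a ratio of 1.29.

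In fibroblasts 10 of the 46 were measured, 1 at least 25% higher and 5 at least 20% lower, where 18.2% and 29.7% of all genes were, and the median log2 ratio was -0.35 against -0.09 over all genes. The proteases that C1q activates, C1ra and C1s1, stood at 112 and 213 CPM in knockout fibroblasts, against 160 and 374 CPM in WT fibroblasts. Within subsets the ratios of C1ra went both ways. They were 1.17 (1.05 to 1.30) in Pi16, 1.07 (0.957 to 1.20) in interstitial and 0.874 (0.776 to 0.984) in activated fibroblasts. In the Gdf10, Penk and Myoc subset the C1ra ratio was 1.09 (0.876 to 1.35). In cycling fibroblasts it was 0.567 (0.373 to 0.871), from 58 knockout and 40 WT UMIs, below the class ratio of 0.699. C1s1 had ratios of 0.941 (0.867 to 1.02) in Pi16, 0.856 in interstitial and 0.615 in activated fibroblasts. Its ratio was 0.872 (0.752 to 1.01) in the Gdf10, Penk and Myoc subset and 0.495 (0.368 to 0.668) in cycling fibroblasts. Cd55, decay accelerating factor, a membrane brake on C3 cleavage, stood at 67.9 CPM in knockout and 191 CPM in WT fibroblasts, the lowest ratio of those measured at 0.355. Its ratio was 0.822 (0.759 to 0.889) in Pi16 fibroblasts and 0.676 in interstitial ones. Cd55 was at 0.459 (0.353 to 0.593) in activated and 0.210 (0.130 to 0.332) in cycling fibroblasts. In the Gdf10, Penk and Myoc subset it was at 0.371 (0.201 to 0.644). Lrp1 had a ratio of 0.605. C2, Colec12 and Vtn, with ratios of 0.941, 0.937 and 0.883, stayed within 20%, as did Cr1l at 1.17. C1qbp stood at 128 CPM in knockout and 76.0 CPM in WT fibroblasts, a ratio of 1.69. It had ratios of 1.65 in endothelial cells and 1.65 in satellite cells or myoblasts, and Cr1l stood above 1 there too, at 1.22 (1.02 to 1.45) in endothelial cells and 1.254 (1.04 to 1.52) in satellite cells or myoblasts. In endothelial cells 8 were measured, 1 higher and 5 lower, where 15.9% and 34.5% of all genes were, among them Cd93 at 1095 CPM in the knockout and 1442 CPM in the WT library. Of the 7 terminal pathway genes, 0 reached 20 CPM in macrophages or fibroblasts of either library.

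**Figure D5:**
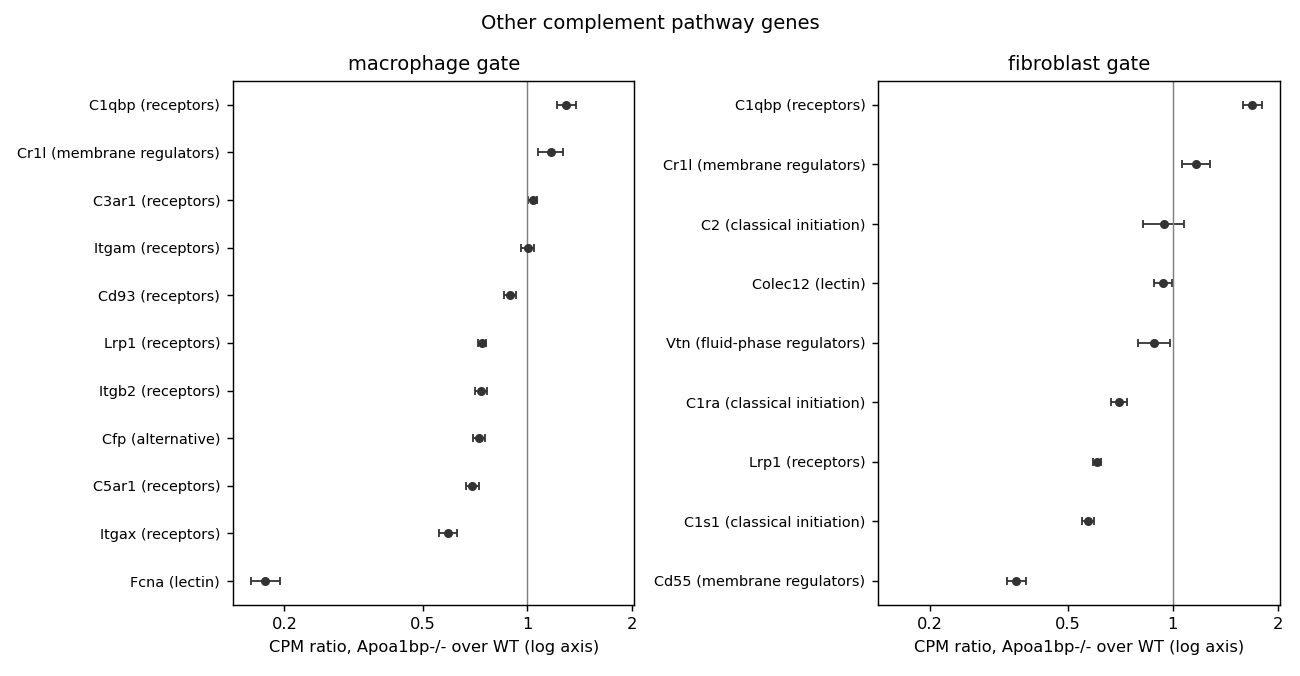
Ratio of CPM in the Apoa1bp-/- library over the WT library, on a log axis with 95% counting intervals, for the complement pathway genes described in the text, of at least 20 CPM in the macrophage gate (left) and the fibroblast gate (right), with each gene's list in brackets. Fcna is lowest in macrophages at 0.176 and Cd55 in fibroblasts at 0.355, and C1qbp is highest in both, at 1.29 and 1.69.

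Over the 24 sums of 12 classes and 2 libraries, the genes whose log2 level was most like each member's were named from 6939 candidates, as a description of points that share libraries and free RNA. For each C1q chain they were Ms4a7, Pf4 and Trem2, with Pearson's r of 0.933 to 0.970; Ms4a7 is itself a macrophage gate marker. C3 was most like Pi16 (r = 0.916), a subset marker, followed by Ace and Mgst1. Serping1 was most like the collagen genes Col6a1 (r = 0.973), Col3a1 and Col6a3. C4b was most like F3, Enpp1 and Apod, all 3 highest in Schwann cells, and Cfb like the chemokine gene Ccl7, Steap3 and Nupr1. Cfd was most like Ccl21a, Mmrn1 and Flt4, genes of lymphatic endothelium, yet the 9 knockout and 15 WT endothelial cells with Mmrn1 had 0 Cfd UMIs.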

How the data were processed

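Per the labels, cells of ischemic adductor muscle were freed with collagenase D and sequenced on the 10x platform. The authors deposited raw UMI counts per gene and barcode, made with Cell Ranger 2.1.1 per the submitters' processing notes and 5.0.0 per the file headers, a difference that was not settled. No source used here names the genome build. Members, gene lists and comparisons were chosen with earlier results of these data known.

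The files held 9392 knockout and 14035 WT barcodes with 80444279 and 80954991 UMIs. Barcodes with under 200 genes (31 and 49) or over 10% mitochondrial UMIs (197 and 149) were removed, as were 482 knockout and 1486 WT barcodes (5.26% and 10.7%) that Scrublet in scanpy called doublets at expected shares of 7.51% and 11.2%. Each class was gated by the mean of its markers' scaled log levels (score at least 0.15, margin at least 0.05; subsets 0.20 and 0.05), limits set after seeing the files. At least 6 markers of each class of 50 cells were found in 25% of its cells. Summed counts were given as CPM of the class with exact Poisson 95% intervals, ratios with exact conditional intervals and shares with Clopper-Pearson intervals; with 1 library per genotype no test was run. Log2 ratios of lists used a prior of 0.5 counts. The steps were tested on simulated data. Named genes were all members, the pathway genes of at least 20 CPM, and the 3 genes most like each member by Pearson's r of log2(CPM + 10). Python 3.11.15, scanpy 1.11.5, numpy 2.4.6, scipy 1.17.1, pandas 2.3.3, matplotlib 3.10.9, R 4.3.3 and edgeR 4.0.16 (for scaling factors only) were used. Protein sequences were not used here, and 1 gene of the pathway lists is counted but not reported here.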

Additional observations from a re-analysis of the deposited data

Results flagged for a closer look

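These results stand out because the 2 libraries differed in opposite directions in different cells; the difference between the cells was not tested. The knockout over WT ratio of C1qa was 2.28 in Pi16 fibroblasts and 0.382 in capillary endothelial cells. The ratio of C1qb was 2.16 in Pi16 fibroblasts and 0.390 in capillary endothelial cells. The ratio of C1qc was 2.56 in Pi16 fibroblasts and 0.365 in cycling fibroblasts. These are classes with low C1q, from 102 to 304 CPM of C1qa in the knockout library and from 134 to 268 CPM in the WT library. The macrophage gate markers summed to 473 CPM in knockout and 283 CPM in WT Pi16 fibroblasts, to 245 CPM in knockout and 396 CPM in WT capillary endothelial cells, and to 256 CPM in knockout and 517 CPM in WT cycling fibroblasts, moving with C1q in all 3, and their part was not tested. After thinning, C1qa was detected in 13.02% of knockout and 13.8% of WT capillary endothelial cells, nearly the same share. The ratio of C3 was 1.23 in Pi16 fibroblasts and 0.1898 in cycling fibroblasts. The ratio of C4b was 1.44 in Pi16 fibroblasts and 0.214 in macrophages. Cfd at 19719 CPM in the 10 knockout cells of the adipocyte gate stands out as a signal in cells too few for the comparisons, beside 0 Cfd UMIs in the 5 WT cells of that gate.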

How the results depend on the processing

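Each main ratio, C1q and Cfd in macrophages and the others in fibroblasts, was recomputed under 11 alternatives, of which the weights of either library were chosen after seeing the data. Of 88 values, 34 moved by less than the counting interval, 50 by more and 4 turned direction. The cause was not tested. With doublets kept, C1qa, C1qb, C1qc, C3 and Serping1 were at 0.978, 1.05, 1.07, 0.499 and 0.509. A stricter gate gave 0.984, 1.06, 1.08, 0.515 and 0.525, with C4b at 0.676. The mean over cells gave 0.990, 1.09, 1.10, 0.508 and 0.554, with C4b at 0.768. Thinning gave 1.00 for C1qa (turned), then 1.06, 1.08, 0.534 and 0.519, with C4b at 0.761. TMM factors gave 1.08 (turned), 1.16, 1.18, 0.493 and 0.499, and median-of-ratios factors 1.07 (turned), 1.15, 1.17, 0.498 and 0.503. Equal subset weights gave 0.954, 1.05, 1.04, 0.761 and 0.708, with C4b at 0.944 and Cfb at 0.846. WT weights gave 0.991, 1.06, 1.09, 0.949 and 0.717, with C4b at 1.18 (turned) and Cfb at 0.895. Knockout weights gave 0.988, 1.05, 1.08, 0.756 and 0.659, with C4b at 0.957 and Cfb at 0.737. The subset-weighted C1q and Cfd values left out the interferon-gated macrophages, 70 knockout and 32 WT cells. Summed C1q in that subset was 11578 CPM in knockout and 15554 CPM in WT cells. The weighted C1q ratios with that subset included were not computed. Cfd, at 4.31 in macrophages from only 50 knockout and 12 WT UMIs, stayed between 3.78 and 6.20. With genes of at least 1 UMI in place of 20 CPM, 5 of 36 other complement genes measured in macrophages were higher and 23 lower (19.3% and 37.8% of all genes), and 6 of 40 in fibroblasts were higher and 20 lower (28.7% and 34.9%). At 5 CPM, 11 of 17 in macrophages and 8 of 20 in fibroblasts were lower (29.1% and 30.3% of all genes). No paired analysis was possible because there was 1 library per genotype. Below about 20 UMIs a ratio is not resolved at this depth.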
